A study of Mus musculus with 10 samples.

Results

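H3K27me3 islands called in both genotypes and carrying no H3K4me3 island in either were examined in mouse embryonic stem cells with and without BAF250a, which Arid1a encodes and which belongs to the BAF complex, a remodeller of nucleosomes of the SWI/SNF family. An island is an interval in which ChIP reads exceed control (input) reads. The 1248 islands were taken from the 8067 H3K27me3 islands of the WT library (15.5%). They are the autosomal WT islands under 10000 bp that overlapped a KO H3K27me3 island by at least 1 bp and no H3K4me3 island of either genotype, with 3 segments of crowded islands left out (mm9 chromosome 4, 145000000 to 148000000; chromosome 13, 12800000 to 13100000; chromosome 14, 1 to 9000000). Of the 6872 autosomal WT islands under the width limit outside these segments, 3990 had no H3K4me3 island in either genotype, and 1248 of those also had a KO H3K27me3 island (31.3%, 95% interval 29.8 to 32.7%). The other 2742 had none.

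All cells were embryonic stem cells of 129/C57BL/6 background, kept on embryonic fibroblast feeders with serum and LIF. WT cells were given ethanol and KO cells 1 µM 4-hydroxytamoxifen, in both cases from 4 hours after passage and for 36 hours, so loss of BAF250a and exposure to the drug cannot be told apart. The ChIP data are 1 H3K4me3 and 1 H3K27me3 library per genotype, with 1 input library per genotype as control. The title of the KO H3K27me3 sample reads H2K27me3, and it was taken as H3K27me3 from its antibody label, on which every KO value rests. The lists hold 1140878 H3K27me3 ChIP reads inside islands in WT and 839422 in KO. With 1 library per genotype and mark there is no replicate spread and no p-value between genotypes. The intervals given cover counting of reads or islands only, and each comparison is between these libraries. The share of feeder chromatin in the libraries was not analysed here.

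H3K27me3 is placed by Polycomb repressive complex 2 and goes with gene silencing. In embryonic stem cells much of it lies at CpG-rich promoters of developmental genes, where it occurs together with H3K4me3, the mark of promoters placed by Trithorax-type methyltransferases, in a state called bivalent. Outside such promoters H3K27me3 also covers stretches without H3K4me3, in gene bodies, between genes and in silenced clusters. BAF complexes slide and evict nucleosomes and are known to oppose Polycomb at many sites. The lists name no genes, and the annotation at hand is of another mouse build, so the islands are described by position and no gene or sequence was assigned to them.

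From 40 reads upwards, the share of H3K4me3-free WT islands also called in KO was higher in each bin of more WT reads. Among islands with 40 to 49 WT ChIP reads, 170 of 872 had a KO island (19.5%, 16.9 to 22.3%), and among those with 120 or more reads 220 of 304 did (72.4%, 67.0 to 77.3%). WT islands that overlapped H3K4me3 had a KO island more often at nearly every read level, at 25.4% (20.1 to 31.4%) and 85.6% (83.4 to 87.6%) in the same bins and at 60.4% over all reads. The lowest bin, under 40 reads, was the exception on both counts. Its 24.2% of H3K4me3-free islands (19.9 to 29.0%) was above the 19.5% and 22.2% of the next 2 bins with overlapping intervals, and above the 17.8% of the others, again with intervals that overlap. The calls chose the islands, so these shares describe the choice.

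**Figure D1:**
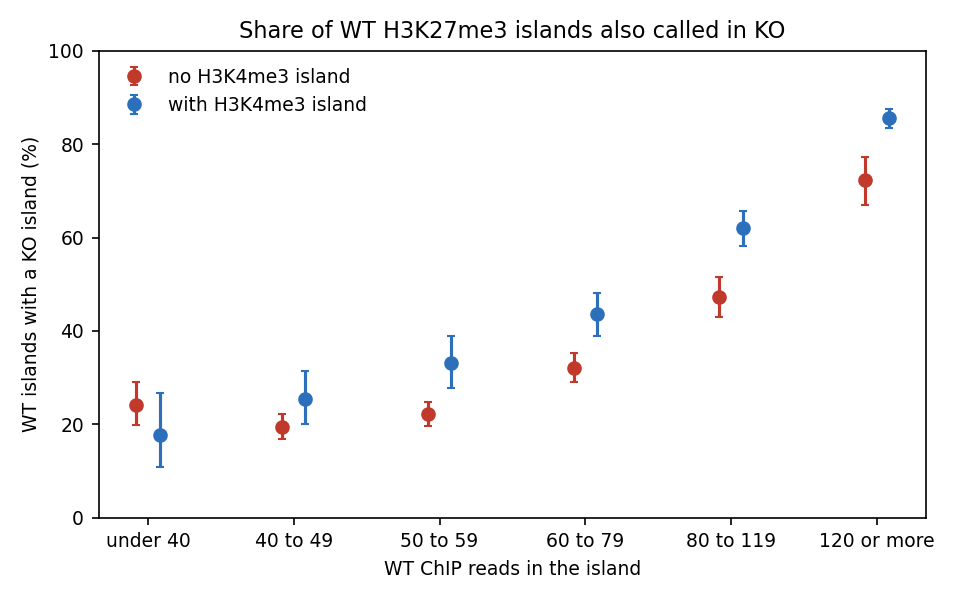
Share of WT H3K27me3 islands that overlap a KO H3K27me3 island (y axis, percent) by the number of WT ChIP reads in the island (x axis), for islands without (red) and with (blue) H3K4me3; bars are 95% exact binomial intervals. In the top bin, 72.4% of H3K4me3-free islands and 85.6% of the others had a KO island.

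The H3K4me3-free shared islands were short and held few reads. Their median width in WT was 2800 bp, from 200 to 9800 bp, with quartiles of 2200 and 4000 bp. The median ChIP count was 68 reads in WT, from 21 to 509, and 93 reads in the KO islands, from 22 to 4971. The median control count was 12 reads in WT and 40 in KO, and 12 islands had a WT control count of 0. By comparison, the 1740 shared islands with H3K4me3, chosen by the same limits, had a median width of 4200 bp and 125 WT ChIP reads. Fold over input is the ChIP count over the control count, corrected for the depth ratio of the ChIP and input libraries. Its median in H3K4me3-free shared islands was 3.41 in WT (1236 islands with a control read) and 2.34 in KO. The fold was 2 or more in both genotypes in 729 of 1248 islands (58.4%). Island calls require enrichment over input, and an island with few reads needs a higher fold to be listed, so these levels follow in part from the choice.

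The fold over input was lower in KO at most of these islands. Each fold was taken over the islands as called in that genotype, at median widths of 2800 bp in WT and 5000 bp in KO. With H3K4me3 these widths were 4200 and 4500 bp, so the intervals compared are less alike without it. On the log2 scale the KO fold differed from the WT fold by a median of −0.47 (95% interval −0.52 to −0.43), and 961 of 1236 islands were lower in KO (77.8%, 75.3 to 80.04%), against 65.6% of all 3989 shared WT H3K27me3 islands with 20 or more ChIP reads and a control read in each genotype. A fold at least 1.5-fold lower was seen in 538 islands (43.5%, against 27.6% of all shared islands), and one at least 1.5-fold higher in 63 (5.10%, against 7.45%). The shared islands with H3K4me3 had nearly equal folds in both genotypes, with a median log2 ratio of −0.04 (−0.07 to −0.02), 53.6% of them lower in KO, and medians of 2.26 in WT and 2.24 in KO. Per island, the 95% counting interval of the fold ratio lay below 1 in 240 H3K4me3-free shared islands (15.8% of all shared islands did), above 1 in 13 (4.11% of all) and spanned 1 in 983, so the depth does not resolve the direction in most single islands. Where both genotypes had 10 or more control reads the median was −0.26 in 761 islands, so the size of the difference depends on that limit. The ratio holds the control reads, and few WT control reads give a high WT fold. The smaller difference therefore follows in part from the choice.

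**Figure D2:**
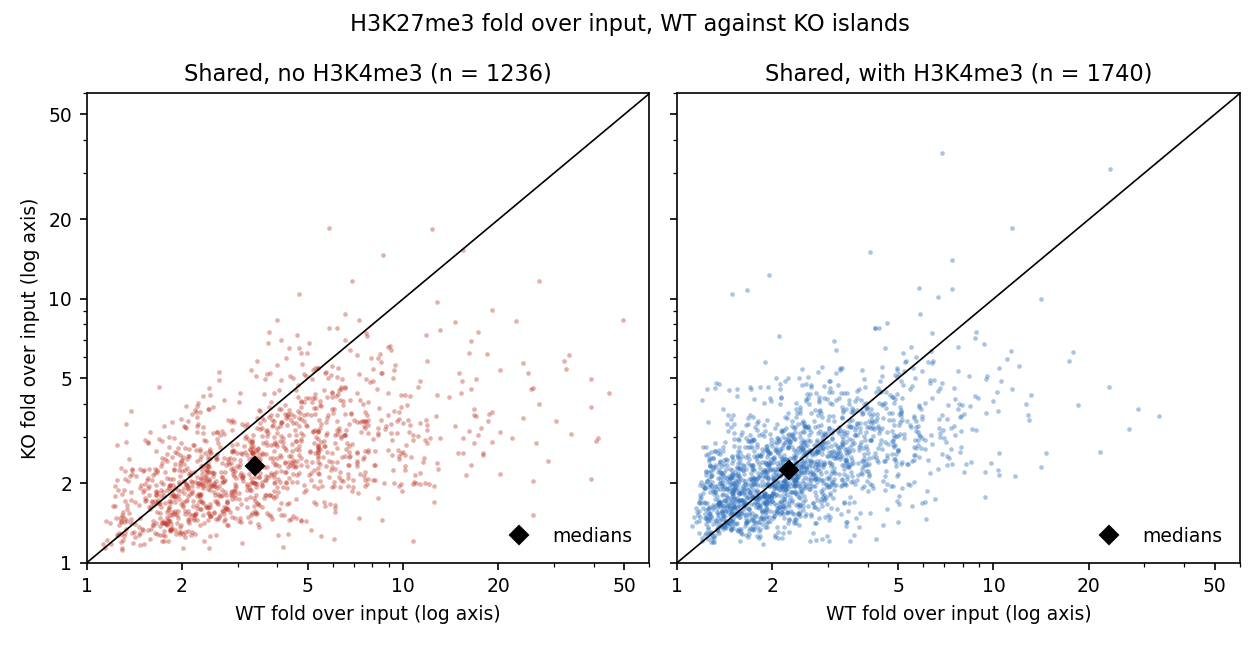
KO fold over input (y axis, log) against WT fold over input (x axis, log) for each shared H3K27me3 island without (left) and with (right) H3K4me3; the line marks equal folds and the diamond the 2 medians. Without H3K4me3 the medians are 3.41 in WT and 2.34 in KO, and with it 2.26 and 2.24.

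Unscaled read density differed between the genotypes in both parts of the fold, by the larger factor in the input without H3K4me3 and in the ChIP with it. In the H3K4me3-free shared islands, the median ChIP density was 25 reads per kb for WT against 19.6 for KO, and the median control density 4.44 against 8.18. In shared islands with H3K4me3 the ChIP medians were 29.4 and 20.9 reads per kb, and the control medians 7.86 and 9.20. Input was thus sparser where H3K4me3 was absent in both genotypes, and the difference between the classes was larger in WT than in KO. Over shared H3K4me3 islands of the whole genome, the pooled control density was 12.8 for WT against 11.9 for KO, so the KO over WT ratio was 0.933 (0.931 to 0.935). WT islands without H3K4me3 and without a KO island had the sparsest input, with a median of 3.13 reads per kb, and the lowest ChIP density, 22.3 reads per kb. Reads are not scaled to library size, which the lists do not give, so a KO over WT ratio can be read only against that of another class.

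**Figure D3:**
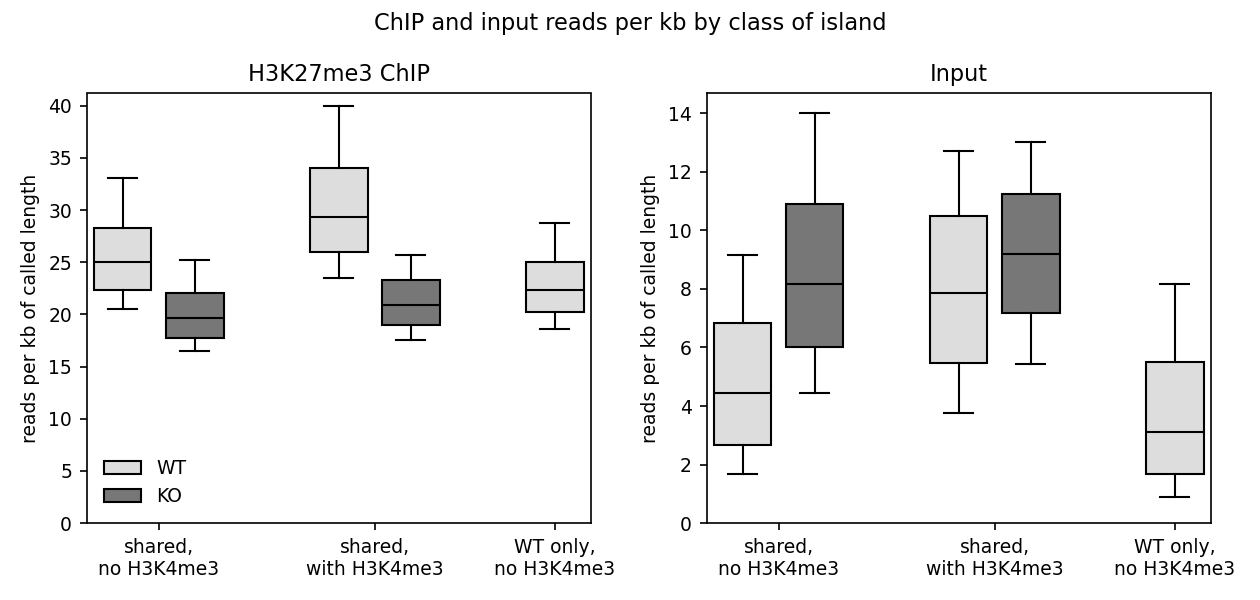
H3K27me3 ChIP reads (left) and input reads (right) per kb of called length, on the y axes, by class of island, in WT (light) and KO (dark); boxes are quartiles with the median, and whiskers the 10th and 90th percentiles. Input medians of islands without H3K4me3 are 4.44 in WT and 8.18 in KO, and of islands with it 7.86 and 9.20.

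Where WT and KO islands had nearly the same ends, the fold was lower in KO by less. Its separation from islands with H3K4me3 held for pooled reads, while for medians over islands the intervals overlapped. In 102 H3K4me3-free islands the part shared was at least 80% of the joint length of the WT and KO islands. These 102 islands held 11791 ChIP and 2539 control reads over 0.427 Mb in WT, and 10113 ChIP and 4386 control reads over 0.433 Mb in KO. Per kb, the KO over WT ratio was 0.845 for ChIP (0.823 to 0.868) and 1.70 for input (1.62 to 1.79). In the 321 shared islands with H3K4me3 and nearly the same ends, the ratios were 0.682 for ChIP (0.673 to 0.692) and 1.16 for input (1.13 to 1.19). Relative to islands with H3K4me3, the H3K4me3-free islands therefore had more KO ChIP reads and still more KO input reads, and the pooled fold went from 2.77 to 2.24 without H3K4me3 (ratio 0.811, 0.767 to 0.857) and from 2.49 to 2.40 with it (0.962, 0.935 to 0.990). Per island, the median log2 fold ratio was −0.28 (−0.38 to −0.12) without H3K4me3, against −0.47 over all 1236 islands, and −0.10 (−0.18 to −0.05) with it. The intervals without and with H3K4me3 overlap, which does not show the medians to be alike, and no interval was taken for their difference. A fold at least 1.5-fold lower in KO was seen in 23.5% of the 102 islands and in 19.6% of the 321. Relative to islands with H3K4me3, pooled ChIP density was thus higher in KO while the pooled fold was lower, so no direction is given for the mark itself. The part of the input in the lower fold was not tested.

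The difference in input was present in islands of like WT width, though their KO islands were not matched in width. Among islands of 2000 to under 3000 bp, the 401 H3K4me3-free shared islands had median control densities of 4.29 (WT) and 8.06 (KO) reads per kb. The 299 shared islands with H3K4me3 in that range had 6.92 and 8.75. Median KO widths were 4600 bp without H3K4me3 and 4000 bp with it. The folds were 3.46 in WT and 2.36 in KO without H3K4me3, and 2.43 and 2.19 with it. In islands of 6000 bp and wider, the 116 without H3K4me3 had 5.85 and 9.76 control reads per kb and a median log2 fold ratio of −0.25, and the 475 with it 8.83 and 9.64 and a ratio of 0.06. Median KO widths here were 7400 bp without H3K4me3 and 6200 bp with it.

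Islands that were strong in WT were the ones with the largest drop, but a choice by KO fold gave no such order. The islands were ordered by WT fold and divided into 4 equal groups. In the group with the highest WT fold, 5.64 to 49.5, the median was 8.25 in WT and 3.18 in KO, with 300 of 309 islands lower in KO. In the group with the lowest, 1.13 to 2.16, the medians were 1.76 and 1.73, and 140 of 309 were lower. ChIP density barely differed between these groups (26 and 24.2 reads per kb in WT), whereas WT control density was 1.83 and 8.57 reads per kb. When the same islands were divided by KO fold, the median log2 ratio was −0.49, −0.43, −0.59 and −0.41 from the lowest to the highest group. Division by WT fold uses WT counts that the ratio holds too, so the gradient is a description of the counts.

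The KO islands were wider than the WT islands when islands were chosen from the WT list, but not when they were chosen from the KO list. The median width was 2800 bp in WT and 5000 bp in KO, with 1010 of 1248 wider in KO (80.9%), 33 equal and 205 narrower (16.4%). With KO islands under 10000 bp as well, 77.8% of 1071 were wider in KO, and in the 789 cases of 1 WT island matched to 1 KO island, 72.0%. When the whole rule was applied to the KO list instead, which changes the starting list, the islands counted and the islands that must be free of H3K4me3 together, 1146 KO islands were found, with a median of 4000 bp in both genotypes, and 48.4% were wider in KO and 48.7% narrower. The fold was lower in KO by that choice too, with a median log2 ratio of −0.28 (−0.32 to −0.24), and 748 of 1136 islands lower (65.8%). That share was near the 65.6% of all 3989 shared WT islands, whose median was −0.21 (−0.23 to −0.19). Those 3989 were counted from the WT list. Shared islands with H3K4me3 gave 53.0% wider in KO when chosen from the WT list and 34.6% when chosen from the KO list.

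**Figure D4:**
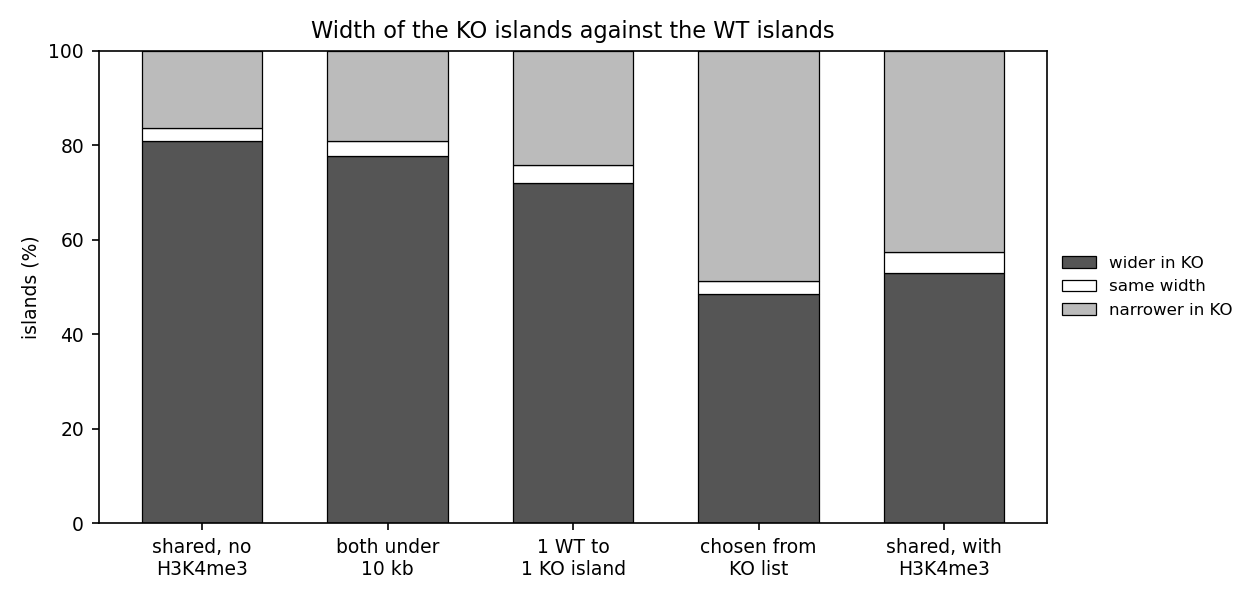
Percent of islands (y axis) whose KO islands are wider than, as wide as or narrower than the WT island, for 5 ways of choosing the islands (x axis). The share wider in KO is 80.9% when islands are chosen from the WT list, 77.8% when their KO islands are also under the width limit, and 48.4% when the whole rule starts from the KO list.

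Position agreed loosely between the genotypes. KO islands covered a median of 91.8% of each WT island, 555 WT islands were covered whole (44.5%) and 179 by less than 50% (14.3%). In 3 cases both ends were identical. A WT island met 1 KO island in 1195 cases, 2 in 52 and 3 in 1. The 1248 islands met 1167 KO islands, of which 108 held 2 of the WT islands, 10 held 3, 1 held 4 and 1 held 5, so that 249 WT islands lay in a KO island with another of them. For 272 of the WT islands (21.8%) the KO island reached an H3K4me3 island beyond the WT ends. Without these 272 the median log2 fold ratio was −0.46 in 966 islands, and with them alone −0.55 in 270.

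Absence of H3K4me3 from an island did not mean distance from it. The nearest H3K4me3 island, measured from end to end, was at a median of 14201 bp in WT and 9701 bp in KO, where the H3K4me3 list is longer. An H3K4me3 island of either genotype lay within 5000 bp of 450 islands (36.1%), and none lay within 50000 bp of 202 (16.2%) or within 100000 bp of 95 (7.61%). WT islands without a KO island and without H3K4me3 lay farther away, at medians of 27001 bp in WT and 18001 bp in KO. The fold varied little with this distance. Islands within 2000 bp of H3K4me3 had medians of 3.20 in WT and 2.13 in KO (n = 221), and those more than 50000 bp away 3.35 and 2.25 (n = 202), with median log2 ratios of −0.41 and −0.51. The KO island reached H3K4me3 in 126 of the 221 nearest cases (57.0%). It did so in 49 of the 403 cases at over 5000 and up to 20000 bp (12.2%). A nearer H3K4me3 island is reached by a shorter extension past the WT ends, so this order follows in part from the distance itself.

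The islands lay close to other H3K27me3 islands. Another WT H3K27me3 island lay within 5000 bp of 755 of 1248 (60.5%, 57.7 to 63.2%), at a median of 2601 bp. This was so for 58.6% of shared islands with H3K4me3 (56.3 to 60.9%) and for 26.2% of WT islands with neither a KO island nor H3K4me3 (24.5 to 27.9%). They were found on all 19 autosomes, from 11.8% of the islands under the width limit on chromosome 10 (40 of 340) to 26.99% on chromosome 7 (129 of 478, 23.1 to 31.2%). The median log2 fold ratio was below 0 on each of the 19, from −0.75 on chromosome 16 to −0.27 on chromosomes 10 and 15. Cut into windows of 1 Mb, 400 of 656 windows with such an island held 1, while 41 windows with 5 or more held 328 islands together.

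The most crowded window was at the distal end of chromosome 7, 150000001 to 151000000, with 55 WT and 32 KO islands of H3K27me3. It held 28 H3K4me3-free shared islands, which lay from 150019201 to 150617400. The islands measured 1000 to 9000 bp, and their fold ran from 1.29 to 16.1 in WT, with a median of 2.27, and from 1.29 to 6.22 in KO, with a median of 1.90. The 28 islands met 24 KO islands, so some of the 28 share KO counts. Here 19 of 28 were lower in KO, and the pooled folds of 2.39 (WT) and 2.19 (KO) gave a ratio of 0.918 whose interval, 0.836 to 1.01, spans 1. The strongest, at 150412201 to 150421200, held 325 ChIP and 12 control reads in WT and 166 and 26 in KO, with folds of 16.1 and 6.22 (ratio 0.385, 0.189 to 0.782). Its nearest H3K4me3 island was 53.6 kb away. At 150551801 to 150560800 the order was the other way, with 271 ChIP and 87 control reads in WT, 80 and 31 in KO, and folds of 1.86 and 2.51. This island was chosen after its values were seen.

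**Figure D5:**
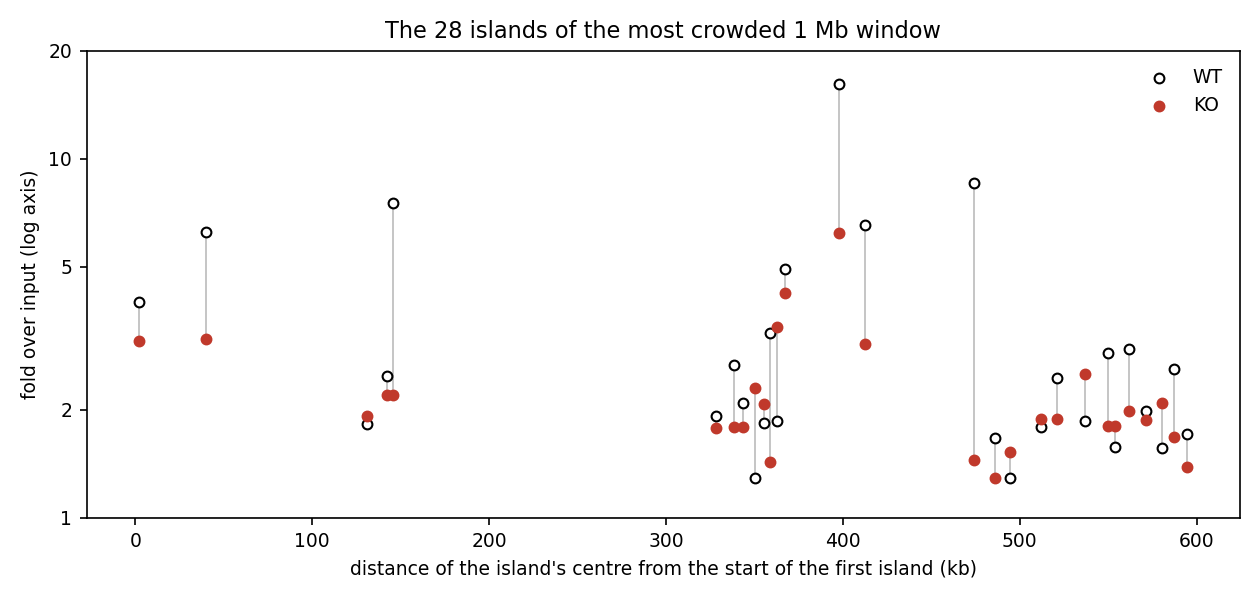
Fold over input (y axis, log) in WT (open) and KO (filled) of the 28 H3K4me3-free shared islands in the most crowded 1 Mb window, against distance from the first of them (x axis, kb); grey lines join the values of an island. WT values reach 16.1 and KO values 6.22, and 19 of the 28 islands are lower in KO.

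The next windows differed more clearly between the genotypes. Positions given for them run from the first to the last H3K4me3-free shared island. On chromosome 18, 37183601 to 37731800, 20 islands had pooled folds of 5.90 (WT) and 2.95 (KO), with a ratio of 0.500 (0.420 to 0.596), and 19 of them were lower in KO. Their ChIP density was 25.8 (WT) and 21.2 (KO) reads per kb, and their control density 2.61 and 6.99. On chromosome 12, 116302801 to 116885000, all 14 islands were lower in KO, with pooled folds of 4.76 and 2.51 (ratio 0.527, 0.425 to 0.654) and 3.04 and 8.01 control reads per kb. The whole window, 116000001 to 117000000, held no WT H3K4me3 island and 3 in KO. On chromosome 14, 43041001 to 43989000, 12 of 13 islands were lower, with pooled folds of 2.38 and 1.74. The 20, 14 and 13 islands of these windows met 17, 10 and 12 KO islands, so some of them share KO counts. Distal chromosome 7 is known for a cluster of imprinted genes, and chromosome 18 for the clustered protocadherin genes. Whether these windows lie in those clusters was not analysed here.

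Among islands with 50 or more ChIP and 10 or more control reads in each genotype (655 of 1248), the 5 lowest fold ratios are described first. At chromosome 7, 50406601 to 50411600, 133 ChIP and 11 control reads in WT gave a fold of 7.21, and 85 and 45 in KO one of 1.84, a ratio of 0.255 (0.125 to 0.521). Its KO island lay at 50403001 to 50407400, so most of the WT interval is not in the KO counts. Chromosome 3, 105952201 to 105956600, had folds of 6.92 and 1.86, chromosome 8, 72053401 to 72056200, 4.33 and 1.29, chromosome 16, 3259201 to 3262800, 6.32 and 1.94, and chromosome 7, 46625001 to 46630200, 5.32 and 1.68. In all 5, control reads per kb were higher in KO, 10.2 to 22.9 against 2.20 to 5.36 in WT. The ratio that chose them holds the KO input in its denominator, so this is a description of the choice. The KO islands were longer in 4 of them, at 10.6 to 26.6 kb.

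The highest fold ratios were smaller in size and less certain. At chromosome 10, 42321001 to 42324400, 94 ChIP and 33 control reads in WT gave a fold of 1.70, and 57 and 12 in KO one of 4.62, a ratio of 2.72 (1.30 to 5.70). On chromosome 13, 95663001 to 95668000, a WT fold of 1.53 stood against 2.91 in KO, with a KO island of 15.6 kb that reached H3K4me3, and the ratio was 1.91 (1.26 to 2.88). Chromosome 13, 114004801 to 114008200, had a ratio of 2.15 (1.05 to 4.42), but its KO island lay at 114007601 to 114010200, so most of the WT interval is not in the KO counts. The other 2, at chromosome 4, 114067001 to 114070400, and chromosome 18, 34362801 to 34366200, had ratios of 1.91 and 1.89 with intervals that span 1. Control density, which the ratio also holds, was lower in KO in 4 of the 5, from 9.71 to 4.00 reads per kb at chromosome 10, and was nearly equal at the island that starts at 95663001 on chromosome 13 (8.20 and 8.46).

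Among the same 655 islands, the 5 strongest by the lower of the WT and KO folds had ratio intervals that span 1 in 4 cases. The fold holds control reads in its denominator, so this choice favours islands with sparse input. At chromosome 18, 37609801 to 37615400, 143 ChIP and 13 control reads in WT and 122 and 17 in KO gave folds of 6.56 and 6.99, a ratio of 1.07 (0.498 to 2.28), and H3K4me3 lay 0.201 kb away. Chromosome 2, 94032201 to 94037600, had folds of 8.45 and 6.17, chromosome 16, 28432801 to 28437200, 5.19 and 5.38, and chromosome 18, 37183601 to 37190200, 5.92 and 5.15. The intervals of these 4 ratios span 1. The remaining one was the chromosome 7 island with a WT fold of 16.1, whose interval lies below 1.

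With a fold of 2 or more in both genotypes, the islands with most WT reads were that chromosome 7 island and 4 others. Chromosome 2, 180304801 to 180313800, held 301 ChIP reads in WT and 113 in KO, with folds of 2.22 and 2.68 and a KO island of 4.0 kb against 9.0 kb in WT. Chromosome 7, 149986201 to 149995800, held 264 reads in 1 WT island and 298 in 2 KO islands, with folds of 6.56 and 4.61 and no H3K4me3 within 135.2 kb. At chromosome 3, 106019001 to 106028000, reads were 251 in WT and 258 in KO at folds of 5.16 and 2.42, with a ratio of 0.468 (0.299 to 0.732). Chromosome 2, 74968801 to 74975400, went from 246 reads in WT to 156 in KO over nearly the same interval, at folds of 3.33 and 2.87, with H3K4me3 0.401 kb away.

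The choice also took in islands with dense input and little enrichment. The densest lay at chromosome 18, 7319601 to 7323600, with 499 ChIP and 249 control reads in WT and 626 and 516 in KO, and folds of 1.19 and 1.18. Chromosome 17, 36620801 to 36622000, had control densities of 53.3 (WT) and 82.9 (KO) reads per kb, with folds of 1.65 and 1.30. Chromosome 14, 45289201 to 45295400, had 269 control reads in WT and a fold of 1.13, and a pair on chromosome 5, at 15050801 to 15055000 and 15183601 to 15188000, had WT folds of 1.89 and 1.84. The ratio interval spans 1 in all 5. Only 24 of 1248 islands (1.92%) exceeded 3 times the median control density of the list in either genotype, and without them the median log2 fold ratio was −0.48.

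The 3 named islands just outside the width limit had higher folds than the 3 just inside it. Just inside it, at 9.8 kb, lay chromosome 14, 52212401 to 52222200 (folds 1.52 in WT and 1.18 in KO), chromosome 4, 64890201 to 64900000 (2.33 and 1.95), and chromosome 6, 52267201 to 52277000 (2.73 and 1.86). Just outside, at 10.0 kb, lay chromosome 3, 105963401 to 105973400 (3.86 and 2.85), 106029201 to 106039200 (5.13 and 2.46) and 123375801 to 123385800 (2.99 and 2.38). In all, 49 islands of 10 kb or wider met the rest of the rule.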

How the data were processed

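The 4 deposited lists of enriched islands, 1 per ChIP library, were used; per the submitters' processing notes they were made with Bowtie (no version given), SICER 1.1 and build mm9, with a window of 200 bp, gaps of 200 bp (H3K4me3) and 600 bp (H3K27me3) and an FDR of 0.05. Nothing used here gives the read filters, and nuclease profiles were not analysed here. Per island the authors deposited ChIP and control read counts, a p-value, an FDR (adjusted p-value) and a fold, which is a ratio equal to ChIP over control counts divided by 1 constant per list (1.68 in WT and 1.03 in KO for H3K27me3). The constants were taken from the lists and folds recomputed from summed counts. Positions are 1-based. KO islands of a WT island were summed; pooled sums count each KO island once. Ratios required 20 ChIP reads and 1 control read per genotype. Intervals are at 95%, Clopper-Pearson (exact binomial) for shares, rank-based for medians, exact conditional binomial for count ratios and normal on the log scale for fold ratios. They treat reads or islands as independent. A 1.5-fold difference was counted as a difference in size only.

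Islands named in the text were the 5 with the highest and lowest fold ratio and the 5 with the highest lower-of-both fold (50 ChIP and 10 control reads in each genotype), the 5 with most WT reads at a fold of 2, the 5 with densest WT input and 3 on each side of the width limit; one more is said to be chosen afterwards. The members, lists and rules were chosen with earlier results of these data known. Gene context and sequence features were planned but not run, as no mm9 genome or annotation was used here. The overlap rule was checked with bedtools 2.31.1 (difference of 0 islands). Fold ratios were checked on simulated counts of known ratio, modelled on islands with 10 or more control reads in each genotype. Islands with fewer control reads were not simulated, so their intervals were not checked. Python 3.11.15, numpy 2.4.6, pandas 2.3.3, scipy 1.17.1 and matplotlib 3.10.9 were used.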

Additional observations from a re-analysis of the deposited data

How the results depend on the processing

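No paired analysis was possible because each genotype and mark had 1 ChIP library. Of 52 alternative values, 15 stayed within the interval or within 1.5 times the count, 35 moved and 2 reversed; except where a setting shortens the list, the cause was not tested. The restrictions to near-identical ends, to KO islands free of H3K4me3 and to islands under the limit in both genotypes, and the rule applied from the KO list, were chosen after seeing the data. The number of islands was 744 with a fold of 2 in both lists and 798 with no H3K4me3 within 5000 bp, both shorter lists, and 976 to 1503 otherwise. The median log2 fold ratio stayed below 0 in all settings, at −0.26 with 10 control reads, −0.52 at an FDR of 1e-05, −0.54 with a fold of 2, −0.28 with near-identical ends and −0.28 with the rule from the KO list. The share lower in KO was 68.6, 81.2, 81.7, 69.6 and 65.8% in that order. Of all 3989 shared WT islands, without these settings, 65.6% were lower, so the shares of 68.6, 69.6 and 65.8% lie near it. The pooled fold ratio was 0.711, and 0.790 with 10 control reads, 0.656 at an FDR of 1e-05, 0.688 with a fold of 2, 0.734 without dense input, 0.811 with near-identical ends, 0.754 with KO islands free of H3K4me3 and 0.767 under the limit in both. Pooled KO over WT reads, which also hold called length, were 1.40, and 1.37 with 10 control reads, 1.38 with 50% overlap, 1.48 at an FDR of 1e-05, 1.24 with a fold of 2, 1.32 without dense input, 1.06 with KO islands free of H3K4me3 and 1.09 under the limit in both; with near-identical ends the ratio reversed to 0.858. The median log2 read ratio was 0.87 scaled to all shared islands, 0.42 unscaled and, reversed, −0.34 per kb of called length. The median log2 width ratio was 0.79, and 0.45 for 1 to 1 partners, 0.64 under the limit in both and 0.0 with the rule from the KO list, with 24.2, 19.1 and 48.7% narrower in KO. The median distance to H3K4me3 was 8601 bp to either list, 14201 bp to the WT list and 9701 bp to the KO list. Depth limits single islands: 983 of 1236 fold ratios had intervals that span 1.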

Other observations

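Outside the autosomes the same rule, applied after the fact, found 140 islands on X and 11 on Y. On X the median fold was 3.56 in WT and 2.19 in KO, and 117 of 140 islands were lower in KO. ChIP reads per kb on X were 31.7 in WT and 28.4 in KO, and control reads per kb 5.51 and 12.1. On Y the folds were 2.44 and 1.81, with 7 of 11 islands lower in KO. In the 3 autosomal segments left out, 255 islands met the rest of the rule, with median folds of 1.99 and 1.66. Their median widths were 3000 bp in WT and 9600 bp in KO, and 183 were lower in KO. Over all 3989 shared WT islands, which take in X, Y and these segments, 65.6% were lower in KO.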
